A study of Mus musculus with 4 samples.

Results

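The genes described here are 32 neuronal and neuroendocrine genes measured in mouse pancreatic islets with and without the retinoblastoma gene Rb1. They are a fixed list of gene names, found on the arrays by matching each probe's transcript accession to a mouse gene symbol, with the brightest probe standing for the gene. All 32 had a probe and all 32 passed the filter on dim probes, out of 26380 genes tested. The 4 arrays each held RNA of whole isolated islets from 1 mouse. The wild type group, 2 mice, had the genotype Pdx1-Cre, and the Rb-deficient group, 2 mice, the genotype Pdx1-Cre:Rbf/f, so the Cre transgene was shared by all 4 animals and the groups differed in the floxed Rb alleles. The Pdx1 promoter drives Cre in cells of the pancreatic lineage, and nerves, vessels and blood cells of an islet arise outside it. Age was not given in the sources used here. In RNA of whole islets, fewer cells of a type and less RNA per cell cannot be told apart.

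Islet endocrine cells share a large part of their gene programme with neurons. They release hormone from vesicles by regulated exocytosis, fire electrically, and use zinc finger factors such as Insm1 and Myt1 that also act in neural precursors. The Rb protein holds back E2F transcription factors and with them entry into the cell cycle, and its loss is a known feature of several neuroendocrine tumours. Islets also contain nerve fibres and small autonomic ganglia, so RNA of true neurons can be part of an islet preparation.

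Values are log2 signals relative to the 75th percentile of each array, so that 0 marks that percentile and a step of 1 is a doubling. A probe's level depends on its sequence, and levels are compared between arrays only. Rb1 itself had signals of 0.30 and 0.88 in wild type and -0.47 and -0.88 in Rb-deficient islets, 2.40-fold lower in mean. Its adjusted p was 0.724 (limma, Benjamini-Hochberg), and the place of its probe relative to the floxed exons was not determined. All 10 beta cell markers, among them Ins1, Ins2 and Iapp, were well above background on each array. Y-linked Eif2s3y, Kdm5d, Ddx3y and Uty were well above background on wild type array 1 only and Xist on the other 3, so the only animal with Y-linked signal was a wild type mouse. Well above background were 76.5% of probes on that array and 59.0% to 59.9% on the other 3.

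Differences among the neuronal and neuroendocrine genes lay on both sides of 0, and 29 of 32 were under 2-fold. The median log2 difference of the 32 genes, Rb-deficient minus wild type, was 0.081, beside a median of -0.070 over all genes tested, and 18 of 32 had a higher mean in Rb-deficient islets, where the background was 41.7%. Well above background on all 4 arrays were 30 of the 32, beside 90.8% of all genes. The clearest differences were in Stmn1, Map2 and Dpysl2 on the higher side and in Mapt and Crmp1 on the lower side. Some marker lists of other cell types lay mostly to one side, with no marker called by limma. A higher mean was found for 0 of 12 acinar markers (median -0.73, 8 below both controls, where the background was 21.0%). The count was 1 of 7 for alpha cell markers (median -0.78) and 11 of 12 for macrophage and dendritic cell markers (median 0.60). It was 1 of 8 for ductal cell markers (median -0.49) and 7 of 7 for endothelial cell markers (median 0.18). Their part in the differences of the 32 genes was not tested. A separate set, led by Nefl and Uchl1, was low on Rb-deficient array 1 and near the wild type level on Rb-deficient array 2.

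None of the 32 passed an adjusted p of 0.05 in limma (Benjamini-Hochberg), with values from 0.808 to 0.999, and neither did any other gene, so the background was 0%. Unadjusted p values under 0.05 were found for 3 of the 32, against 5.69% of all genes. They were 2 higher genes, where the background was 1.44%, and 1 lower, where it was 4.25%. Groups did not overlap for 18 of the 32, beside 36.0% of all genes. Both Rb-deficient values lay above both wild type values for 11 of the 32, where the background was 14.9%, and below both for 7, where it was 21.0%. Differences of at least 2-fold numbered 3 of 32 beside 9.76% of all genes, with 1 higher (background 1.69%) and 2 lower (background 8.06%). The lower genes were Uchl1 and Nefl, and Nefl rests on a value not well above background; with that value set to the lowest signal well above background on its array, its difference was -0.95, under 2-fold. With 2 against 2 animals an exact permutation test of a single gene cannot give a two-sided p below 0.33. When each array was scaled to its median instead, the median over all genes became 0.37, and the groups then stood apart for 14 of the 32, all upward, beside 37.3% of all genes. That scaling adds the same amount, 0.44, to the difference of every gene.

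**Figure D1:**
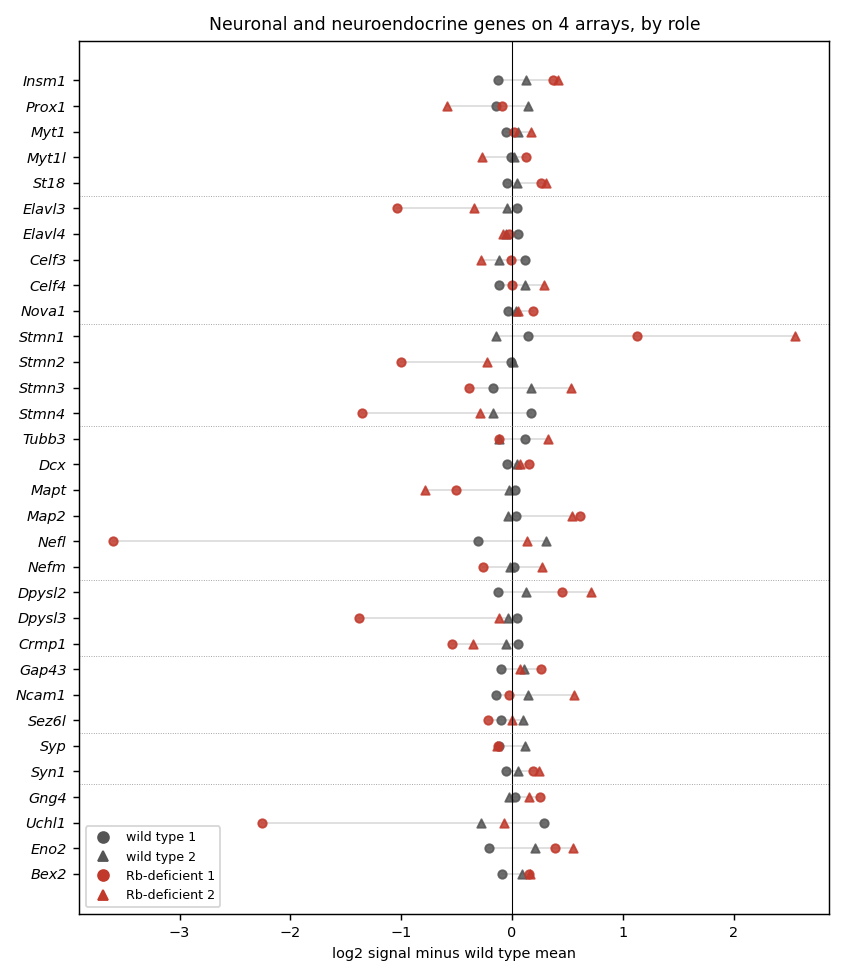
Each row is a gene, ordered by role with dotted lines between roles, and the x axis is the log2 signal minus that gene's mean over the 2 wild type arrays. Grey symbols are wild type and red symbols Rb-deficient mice; Stmn1 lies far to the right on both red symbols, while Nefl and Uchl1 have a single red circle, Rb-deficient array 1, far to the left.

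The promoter windows below are shown for Map2, whose groups stood apart with little spread, for Uchl1, whose Rb-deficient arrays disagreed, and for Syn1, a textbook target of the repressor REST, which silences neuronal genes outside the nervous system. They are the 250 bases before the gene start, 5′ to 3′ on the gene's strand, from RefSeq on GRCm38.p6. Capitals mark TTCAGCACC, the opening letters of the RE1 element to which REST binds.
Map2, chr1:66175079-66175328, plus strand: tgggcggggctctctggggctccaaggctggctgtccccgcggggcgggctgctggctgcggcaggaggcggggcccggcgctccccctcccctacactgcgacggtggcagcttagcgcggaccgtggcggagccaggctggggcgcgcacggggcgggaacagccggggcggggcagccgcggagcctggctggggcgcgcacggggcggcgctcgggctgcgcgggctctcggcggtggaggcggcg
Uchl1, chr5:66675871-66676120, plus strand: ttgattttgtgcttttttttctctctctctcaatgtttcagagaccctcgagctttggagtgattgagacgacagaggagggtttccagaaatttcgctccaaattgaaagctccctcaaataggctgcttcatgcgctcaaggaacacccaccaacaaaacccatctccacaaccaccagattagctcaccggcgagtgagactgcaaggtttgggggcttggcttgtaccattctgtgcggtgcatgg
Syn1, chrX:20920919-20921168, minus strand: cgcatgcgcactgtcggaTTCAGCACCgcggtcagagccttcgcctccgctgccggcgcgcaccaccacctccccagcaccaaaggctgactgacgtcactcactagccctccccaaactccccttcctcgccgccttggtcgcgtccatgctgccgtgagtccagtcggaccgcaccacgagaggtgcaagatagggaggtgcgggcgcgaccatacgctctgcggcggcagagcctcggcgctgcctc

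The Map2 window holds 81.2% G and C, that of Syn1 68.0% and that of Uchl1 48.8%, beside a median of 52.4% over all windows. Windows were available for 19 of the 32 genes. The letters TTCAGCACC, searched on both strands, stood in the windows of 1 of these 19 genes, Syn1, beside 0.348% of all genes with a window. The E2F letters TTTCCCGC, TTTGGCGC, TTTCGCGC and TTTGCCGC, on both strands, stood in 0 of the 19, in 4 of 21 proliferation genes (Cdk1, Mcm5, Mcm6 and Mcm7) beside 2.16% of all genes with a window, a gene counting once however many matches or windows it had. Nothing about the factors follows from a match or its lack in so short a window. Stmn1, Mapt, Nefl and Insm1 were among the 13 genes for which no window is shown here.

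Of the transcription factors, 2 of 5 stood above the controls (background 14.9%) and none below (background 21.0%). Insm1, a zinc finger repressor needed for endocrine cell differentiation, had signals of 5.01 and 5.25 in wild type and 5.50 and 5.55 in Rb-deficient islets. Both Rb-deficient mice lay above both controls, by 0.39 on the log2 scale in mean (SE 0.19), or 1.31-fold. St18, a zinc finger factor of the Myt family, stood at 2.92 and 3.02 against 3.23 and 3.27, also apart, at 1.22-fold, and its dimmer probe differed by 0.68. Myt1, which promotes endocrine differentiation, differed by 0.091 and Myt1l, a neuronal relative, by -0.071, with overlapping groups in each. Prox1, a homeobox factor of pancreatic progenitors, had 0.68 and 0.98 against 0.74 and 0.24. Its low value came from Rb-deficient array 2 alone, and its mean difference of -0.34 turned to 0.10 when arrays were scaled to the median, where Myt1l turned to 0.37.

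The RNA-binding factors, which set neuronal splicing and mRNA stability, differed little except for Elavl3. Celf3 and Celf4, splicing factors, differed by -0.15 and 0.14, Elavl4, the neuronal HuD protein, by -0.053, and Nova1, a neuronal splicing factor, by 0.12. Of these 4, only Nova1 had groups that did not overlap, at -0.78 and -0.71 against -0.56 and -0.69. Celf3 turned to 0.29 and Elavl4 to 0.39 with median scaling, and Elavl4 to 0.033 with normexp background correction. Elavl3, the neuronal HuC protein, had -4.24 and -4.33 in wild type and -5.33 and -4.63 in Rb-deficient islets, and on Rb-deficient array 1 it was not well above background. Its second probe had unlike values of -3.57 and -4.96 in wild type and was dim, that is not well above background, on both Rb-deficient arrays. Against the mean of these wild type values it was at least 2.11-fold lower. Quantile normalization turned the difference of the first probe from -0.69 to 0.25.

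The stathmin family, proteins that bind tubulin and destabilise microtubules, had members on both sides. Stmn1, found in many dividing cells as well as in neurons, had signals of 0.39 and 0.11 in wild type and 1.38 and 2.81 in Rb-deficient islets. Both Rb-deficient mice lay above both controls, array 2 much more so, and the mean difference of 1.84 (SE 0.55) was 3.58-fold. The second Stmn1 probe gave -0.53 and -0.83 against 0.43 and 1.84, a difference of 1.81. Unadjusted p was 0.0312 and adjusted p 0.808 in limma with Benjamini-Hochberg adjustment; over the alternatives the adjusted p ran from 0.0033, with median scaling, where limma gave nearly all genes 1 pooled standard error of 0.55, to 1.00. The difference was 2.56 without Rb-deficient array 1 and 1.12 without Rb-deficient array 2.

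The other 3 stathmins, which are mainly neuronal, gave lower or level values. Stmn2, an axon growth and repair protein, had 0.16 and 0.18 in wild type and -0.83 and -0.057 in Rb-deficient islets. Stmn4 had -2.48 and -2.83 against -4.01 and -2.95. In each, both Rb-deficient values were the lower ones, with array 1 lowest, and mean differences were -0.61 (SE 0.33) and -0.82 (SE 0.44). Without Rb-deficient array 1 they were -0.23 and -0.29. Stmn3 had 3.04 and 3.38 against 2.82 and 3.74, so the wild type mice lay between the Rb-deficient ones.

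Stmn1 was higher alongside genes of cell division. Of 24 proliferation genes on the list, 23 were tested, with a median difference of 1.69. All 23 had both Rb-deficient values above both controls, beside 14.9% of all genes. A few of them, Cdk1 included, were dim on a wild type array or on both. These passed the filter only through the Rb-deficient group, where they are high, which favours a place above the controls. Unadjusted p in limma was under 0.05 for 17 of them, all higher, beside 1.44% of all genes. With Benjamini-Hochberg adjustment limma called 0. The list's median stood 1.24 above the wild type mean on the first Rb-deficient array and 2.04 on the other, and Stmn1 was also farther from the wild type mean on array 2. Mcm3, a helicase subunit for DNA replication, was 6.79-fold and Cdk1, the kinase of mitotic entry, 5.56-fold higher. Cdk1 had -4.89 and -5.67 in wild type and -3.24 and -2.36 in Rb-deficient islets. Its value of -5.67 was not well above background, so the size of its fold is not measured. The part of dividing cells in the Stmn1 value was not tested.

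**Figure D2:**
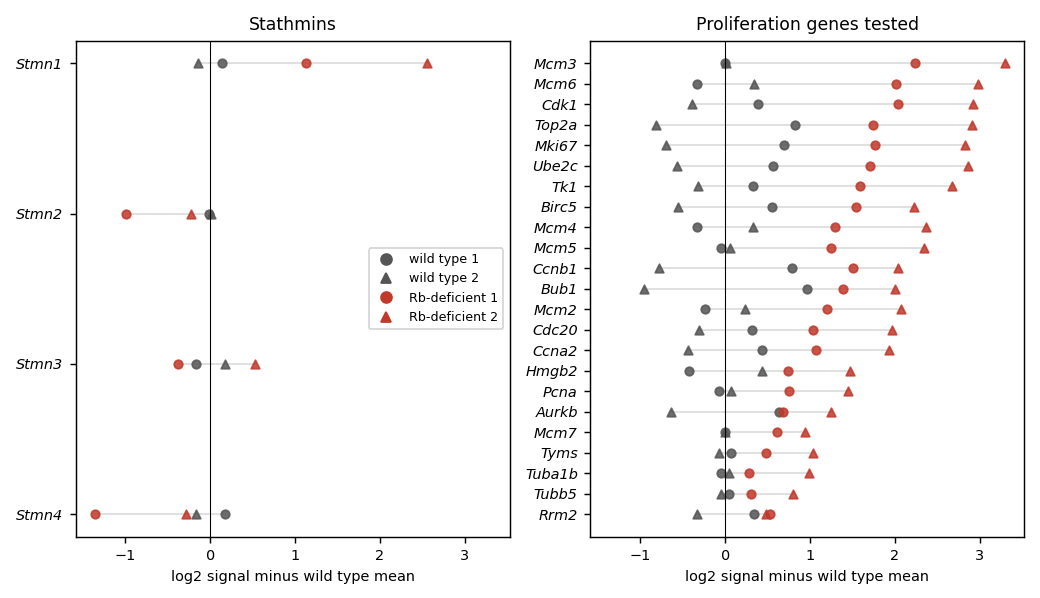
The x axis is the log2 signal minus the wild type mean of each gene, with grey symbols for wild type and red for Rb-deficient mice; the left panel holds the 4 stathmins and the right panel the 23 proliferation genes tested, ordered by mean difference. Stmn1 has both red symbols to the right, the triangle of Rb-deficient array 2 farthest, as most proliferation genes do, whereas Stmn2 and Stmn4 have both to the left.

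Among cytoskeletal genes, Map2 and Mapt differed in opposite directions. Map2 encodes a microtubule-associated protein of dendrites and Mapt encodes tau, its relative of axons. Map2 had signals of 3.10 and 3.03 in wild type and 3.68 and 3.61 in Rb-deficient islets, and Mapt had 2.56 and 2.50 against 2.03 and 1.75. The groups did not overlap in either gene and spread little within groups, with SDs of 0.053 and 0.049 for Map2 (n = 2 each) and 0.043 and 0.20 for Mapt. Map2 was 1.49-fold higher (log2 difference 0.58, SE 0.18) and Mapt 1.56-fold lower (-0.64, SE 0.20), with unadjusted p values of 0.0323 and 0.0346 and adjusted p values of 0.810 and 0.835 in limma with Benjamini-Hochberg adjustment. All 4 Mapt probes were lower, by -0.60 to -1.04, and in each both Rb-deficient values lay below both controls. Both Map2 probes were higher, by 0.25 and 0.58. With median scaling Map2 differed by 1.02 and Mapt by -0.20.

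The neuron-specific tubulin Tubb3, at 0.79 and 0.55 against 0.55 and 0.99, and Nefm, the medium neurofilament chain, at 1.08 and 1.04 against 0.80 and 1.33, had overlapping groups. Their mean differences were 0.10 and 0.0028, and that of Nefm was below 0 with quantile normalization. Dcx, a microtubule protein of migrating neurons, was 0.11 higher with groups apart, but its second probe differed by -0.18. Nefl, the light neurofilament chain, had -3.53 and -2.91 in wild type and -6.82 and -3.08 in Rb-deficient islets. On Rb-deficient array 1 it was not well above background, while Rb-deficient array 2 lay within the wild type range.

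**Figure D3:**
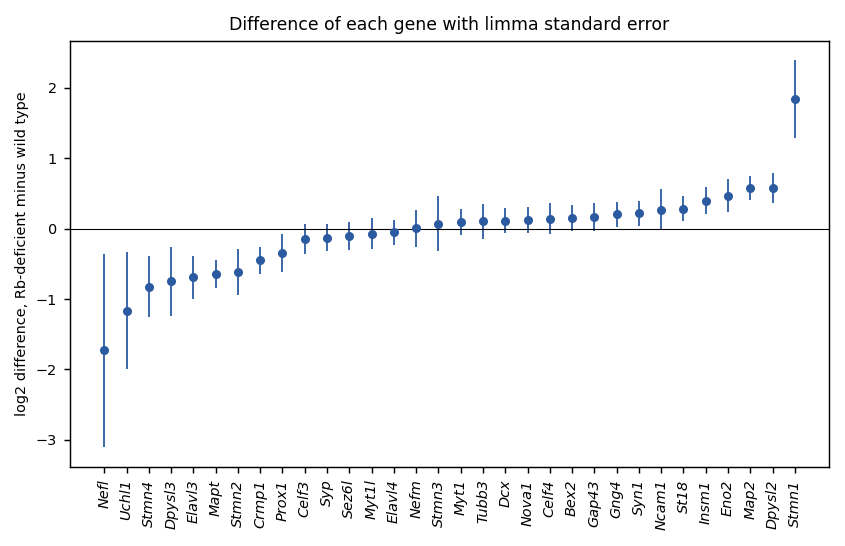
Points are the log2 difference of each gene, Rb-deficient minus wild type, in ascending order along the x axis, and bars are limma standard errors from 2 against 2 arrays. Stmn1 stands alone at the top at 1.84, and Nefl and Uchl1 at the bottom have the longest bars, with standard errors of 1.38 and 0.83.

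The collapsin response mediators, cytosolic proteins that couple guidance cues to microtubules, also split. Dpysl2 had 2.46 and 2.71 in wild type and 3.03 and 3.29 in Rb-deficient islets, apart by 0.58 (SE 0.22), or 1.49-fold. Crmp1 had 1.35 and 1.25 against 0.75 and 0.95, apart in the other direction by -0.45 (SE 0.19), or 1.37-fold lower. With median scaling the Crmp1 difference was -0.0087. Dpysl3 had -1.62 and -1.70 against -3.04 and -1.78, low on Rb-deficient array 1 and just under the controls on array 2. Its other probes gave -7.40 and -7.32 on array 1, not well above background there. The probe at -7.32 was well above background on wild type array 2 only.

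By their brightest probes, growth cone and adhesion genes overlapped between groups. Gap43, a growth cone protein, had -0.83 and -0.62 against -0.46 and -0.65. Ncam1, a cell adhesion molecule of neurons and endocrine cells, had 2.59 and 2.88 against 2.71 and 3.29. Sez6l, a membrane protein of neurons, had 2.08 and 2.28 against 1.96 and 2.18, and its -0.11 turned to 0.34 with median scaling. Their mean differences of 0.17, 0.27 and -0.11 had standard errors of 0.20 to 0.29. The other Sez6l probes stood below both controls, by -0.25 and -0.27, and 1 other Ncam1 probe above both, by 0.36.

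Both vesicle genes differed by small amounts. Syp, synaptophysin of small vesicles and a clinical marker of neuroendocrine tissue, had 4.30 and 4.53 in wild type and 4.29 and 4.28 in Rb-deficient islets. The Rb-deficient values lay just under the lower control, and the difference of -0.13 turned to 0.31 with median scaling. Syn1, which tethers synaptic vesicles to actin, had 1.81 and 1.92 against 2.06 and 2.11, apart by 0.22 (SE 0.18). In a wider list of 31 synaptic vesicle and neurosecretion genes, 29 were tested and 13 had a higher mean, with a median difference of -0.072. Of the 29 tested, 5 lay above both controls and 7 below, beside 14.9% and 21.0% of all genes. Rab3b, a vesicle GTPase, was 1.63-fold higher, and Syt1, a calcium sensor of exocytosis, 1.54-fold lower, neither of them called in limma.

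The remaining neuroendocrine markers were higher except for Uchl1. Eno2, the neuron-specific enolase, had 2.42 and 2.83 in wild type and 3.01 and 3.17 in Rb-deficient islets, 1.38-fold higher with groups apart. Bex2, a small adaptor protein, had 5.21 and 5.38 against 5.45 and 5.45, and Gng4, a G protein gamma subunit, had 0.27 and 0.21 against 0.50 and 0.39. Both stood apart by small amounts, 0.15 and 0.20, close to their standard errors of 0.18 each, and the second Gng4 probe differed by -0.014. Uchl1, a ubiquitin hydrolase abundant in neurons and in endocrine cells, had 2.02 and 1.46 against -0.52 and 1.66. Rb-deficient array 2 lay between the controls and array 1 far below them, so that the mean difference of -1.17 had a standard error of 0.83.

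Rb-deficient array 1 was thus the lowest of the 4 arrays for 10 of the 32 genes, where the background was 19.2% of all genes. It lay at least 2-fold below Rb-deficient array 2 for 5 of the 32, Stmn1, Stmn4, Nefl, Dpysl3 and Uchl1, where the background was 3.96%, and at least 2-fold above it for 0, where it was 12.0%. Of these, Stmn1 was not low on Rb-deficient array 1. It stood 1.12 above the wild type mean there and 2.56 above it on Rb-deficient array 2. The wild type arrays were at least 2-fold apart for 0 of the 32, beside 10.4% of all genes. Without Rb-deficient array 1, the differences of Nefl, Uchl1, Dpysl3 and Elavl3 were 0.14, -0.074, -0.12 and -0.34, in place of -1.73, -1.17, -0.75 and -0.69. Nefl and Elavl3 were dim on that array and passed the filter through the wild type group; with the dim value at the array's lowest signal well above background, their differences were -0.95 and -0.65.

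Most markers of peripheral neurons were low on the same array. Of the 9 tested, 5 lay below both controls on both Rb-deficient arrays, where the background was 21.0%. Of 10 such markers, 10 and 9 were well above background on the wild type arrays, 4 on Rb-deficient array 1 and 9 on Rb-deficient array 2. Phox2a, which specifies autonomic neurons, had -2.71 and -2.35 in wild type and -7.03 and -2.63 in Rb-deficient islets. Prph, the peripheral neurofilament protein peripherin and also on the wider cytoskeleton list, Slc5a7, the choline transporter, and Dbh, of noradrenaline synthesis, were also not well above background on Rb-deficient array 1. Like Phox2a, they passed the filter through the wild type group. On Rb-deficient array 2, Slc5a7 was at -3.82, just under the lower control at -3.80. Vip, a neuropeptide, had -0.30 and 0.035 in wild type and -4.31 and -1.68 in Rb-deficient islets, low on both Rb-deficient arrays and 7.26-fold lower in mean (unadjusted p 0.0444 in limma, not called). Chat, of acetylcholine synthesis, had -3.24 and -3.94 against -4.05 and -5.13, lowest on Rb-deficient array 2. Of the 9 markers tested, 6 were at least 2-fold lower on Rb-deficient array 1 than on array 2, beside 3.96% of all genes. Relative to wild type, the median of the list was -3.41 on Rb-deficient array 1, where several values were dim and their size is not measured, and -0.10 on the other.

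The summed linear level of the 10 neuron markers, in multiples of the 75th percentile, was 18.0 and 23.1 in wild type and 23.5 and 27.3 in Rb-deficient islets, most of it from Th, which had log2 signals of 4.02 to 4.71. Without Th, a step chosen after its values were seen, the sum was 1.81 and 1.95 in wild type and 0.235 and 1.09 in Rb-deficient islets. Stellate cell and fibroblast markers differed between the Rb-deficient arrays too, with medians of -0.63 and 0.59 from the wild type mean and summed levels of 10.1 and 12.0 in wild type and 9.51 and 17.2 in Rb-deficient islets; 9 of these 10 markers were well above background on each array. The PP cell markers Ppy and Pyy, of endocrine cells, had medians of -1.28 and 1.70 on these arrays, with Ppy at 7.37 and 8.19 in wild type and 6.31 and 9.31 in Rb-deficient islets. Macrophage and dendritic cell markers had 0.28 and 1.24, with 7 of 12 at least 2-fold lower on Rb-deficient array 1 than on array 2, beside 3.96% of all genes. Schwann cell markers, which mark the glia of nerve fibres, stood at -0.0094 and 0.40, with 7 to 9 of 10 well above background. The part of neurons or other cell types in the low values on Rb-deficient array 1 was not tested. Insm1, Bex2, Celf4 and Syp differed by at most 0.28 between the Rb-deficient arrays. They are examples and do not stand for all bright genes described here. Stmn3 differed by 0.92, Ncam1 by 0.59 and Uchl1 by 2.18, each lower on Rb-deficient array 1.

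**Figure D4:**
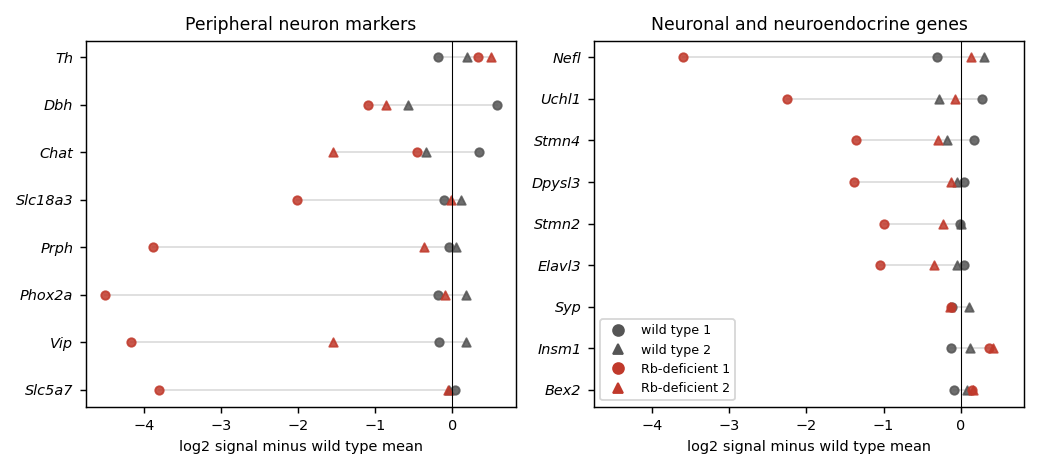
The x axis is the log2 signal minus the wild type mean, in grey for wild type and red for Rb-deficient mice; the left panel shows 8 of the 9 peripheral neuron markers tested and the right panel 9 of the 32 genes, chosen after their values were seen. The red circle of Rb-deficient array 1 lies far to the left for Phox2a, Prph and Slc5a7 and for Nefl and Uchl1, but beside the red triangle for Syp, Insm1 and Bex2.

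Wider lists of related genes also gave mostly small differences, and limma called none of their members (Benjamini-Hochberg adjustment over all genes). Of 34 other cytoskeleton and axon genes tested, 22 had a higher mean, with a median difference of 0.20. Above both controls lay 14 and below both 3, where the backgrounds were 14.9% and 21.0%. A higher mean was found for 41.7% of all genes. Cntn1, a neuronal adhesion molecule, was 1.68-fold and Bex4, a relative of Bex2, 1.58-fold higher. Of 21 other proneural and neuroendocrine transcription factors, 13 had a higher mean, with a median of 0.16. Onecut2, a factor of endocrine differentiation, was 1.56-fold higher (unadjusted p 0.0361 in limma), Neurog3, the endocrine progenitor factor, 1.57-fold lower and Rest 1.42-fold lower. Lmo1, a LIM-domain cofactor, had 0.033 and -0.11 against 0.51 and 1.59, apart by 2.12-fold. Of 13 other RNA-binding genes, 6 had a higher mean and the median was -0.072. Rbfox1, a neuronal splicing factor, was 2.29-fold lower, with signals of -2.80 and -2.55 against -4.33 and -3.41. These medians, like those of the 32 genes, stood higher by 0.44 with median scaling, which adds a constant to every difference.

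Where a gene had several probes, they gave the same direction for some genes and not for others. The probes agreed in sign for Mapt, Map2, Stmn1, Stmn3, St18, Myt1, Sez6l, Elavl3, Elavl4 and Dpysl3. Both Elavl3 probes, and every Dpysl3 probe but the brightest, were dim on Rb-deficient array 1. They disagreed for Dcx, Gng4, Myt1l, Ncam1, Nefm and Nova1. For Ncam1, 3 probes were higher by 0.099 to 0.36, and the fourth, not well above background on any array, was lower.

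**Figure D5:**
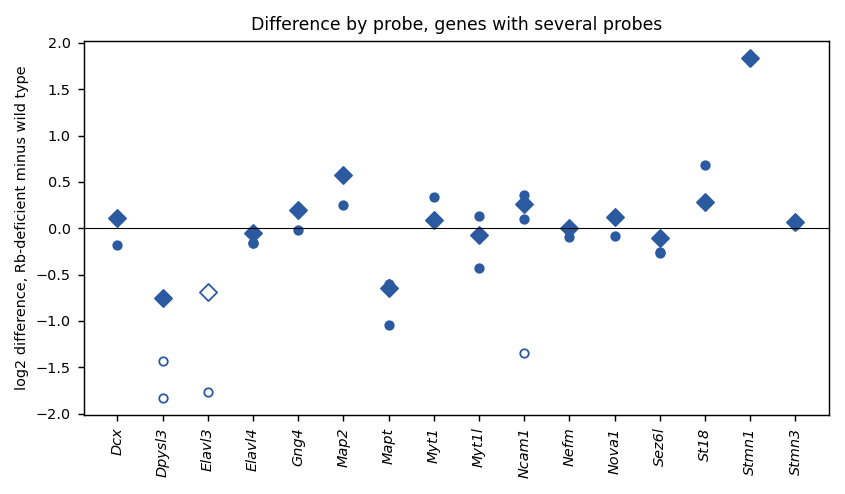
Each symbol is the log2 difference of a probe, Rb-deficient minus wild type, for the genes with several probes; the diamond is the brightest probe and filled symbols are probes well above background on all 4 arrays. All Mapt probes lie below 0 and both Stmn1 probes near 1.8, while open symbols, for dim probes, make up the lowest values of Ncam1, Dpysl3 and Elavl3.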

How the data were processed

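Total RNA of isolated islets was extracted with an RNeasy kit, amplified and labelled with Cy3 (Pico WTA System), per the labels' protocols. The deposited scanner files give intensity values. Feature Extraction (Agilent, version 12.0.3.1, per the file headers) subtracted background and detrended them, without scaling between arrays, for a design annotated on mm9. The deposited value table holds the same intensity values on a linear scale, not centred, multiplied by a constant per array (1.74 to 2.49) of unknown origin, with column medians of 220 and 181 (wild type) and 188 and 157 (Rb-deficient). All 4 arrays shared 1 slide. The number of arrays limits the precision.

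Controls and outlier spots (64 to 93 on an array) were dropped. Each processed signal was put on the log2 scale, the 75th percentile of its array was subtracted, and spots of a probe were averaged. Probes well above background on both arrays of a group were kept, 33848 in all. Accessions matched a RefSeq table (GRCm38.p6) for 32994 of 56605 probes. The brightest probe stood for a gene. Groups came from the sample labels. The test was limma (version 3.58.1, R 4.3.3; two-sided, no covariates, Benjamini-Hochberg adjustment over 26380 genes, threshold 0.05). limma was also run on simulated data that gave every gene the same SD. On these arrays the spread differs between genes, so that run is no check of the results here. Where a probe was dim on both arrays of a group, a fold is a bound against the lowest signal well above background.

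The 32 genes and the other lists were chosen with earlier results of these data known. Every one of the 32 is named; of related lists at most 4 genes with the smallest p, of marker lists at most the 3 brightest. Neuron markers beyond the brightest 3 were named after their values were seen, and 1 of them is not reported here. Setting dim values to the array floor was chosen after seeing the data. The alternatives are given with their effect in the closing section. Titles share replicate numbers 1 and 2 between groups, but nothing ties same-numbered mice; deviations of same-numbered arrays correlated at 0.30 across genes.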

Additional observations from a re-analysis of the deposited data

How the results depend on the processing

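Of 12 alternatives, 11 called 0 genes in limma; scaling to the array median called 479 of all genes, 234 higher and 245 lower, and 1 of the 32, Stmn1, and moved the median of the 32 genes to 0.52. In that fit limma gave nearly all genes 1 pooled standard error, 0.55. Averaging a gene's probes gave a median of -0.0079. With 1 array left out, the median ran from -0.018 to 0.11 and the genes with groups apart from 22 to 28 of 32, beside 57.7% to 78.4% of all genes, since fewer arrays overlap less often; the highest count, with 4006 genes of all at an unadjusted p under 0.05, was without Rb-deficient array 1. The probes tested were kept fixed in these fits. In the fit with the replicate number as a block, limma again called 0 genes, with 3162 at an unadjusted p under 0.05 in place of 1500, and the median of 0.081 and the 18 genes apart are the same by construction; no call changed. Slide as a block was not run, since there was 1 slide. Normexp used the median spot signal, the column at hand. The deposited value table gave a median of 0.078. It holds the same intensities times 1 constant per array, so it is not an independent check.

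Of 382 values of single genes, 94 were fixed by construction (the block and both filters). Of the other 288, 265 kept their direction and 23 did not, 6 of them with median scaling, which adds 1 constant to every gene. Not all of the 288 could change direction. Genes with a single probe keep the same value when probes are averaged. The deposited table moves every gene by the same small amount, Insm1 from 0.395 to 0.392, so only a very small difference could turn there. The count of 265 therefore overstates how well directions held. Median scaling turned Prox1 to 0.10, Myt1l to 0.37, Elavl4 to 0.39, Celf3 to 0.29, Sez6l to 0.34 and Syp to 0.31. Quantile normalization turned Elavl3 to 0.25 and Nefm to -0.025, normexp Elavl4 to 0.033, averaged probes Dcx to -0.032 and Nefm to -0.048, and the deposited table Nefm to -0.00047. With an array left out, signs differed for Elavl4 (-0.11 to 0.0023), Stmn3 (-0.39 to 0.53), Tubb3 (-0.11 to 0.32), Nefm (-0.26 to 0.27), Nefl (-3.60 to 0.14), Sez6l (-0.21 to 0.0025), Myt1l (-0.27 to 0.13) and Ncam1 (-0.028 to 0.56). Signal near background limits Elavl3 and Nefl, which were dim on Rb-deficient array 1.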
